A study of Drosophila melanogaster with 4 samples.

Results

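The 73 genes described here encode most of the proteins of the Drosophila mitochondrial ribosome. They were chosen by symbol, as genes named mRpL or mRpS followed by a digit with a mean of at least 1 FPKM over the 4 libraries, and all 73 of the 73 such symbols among the 16768 genes of the table passed this minimum. FPKM is the number of fragments normalised to transcript length and to the mapped reads of the library, and the transcripts of a gene were summed. Of the 73 genes, 47 name a protein of the large subunit (mRpL) and 26 a protein of the small subunit (mRpS), and together they have 96 annotated transcripts, with 55 genes represented by 1 transcript and 18 by several. In all, 7949 genes passed the same minimum.

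The mitochondrial ribosome is the machine that translates the few messenger RNAs transcribed inside mitochondria, which in animals encode core subunits of the respiratory chain. Its ribosomal RNAs come from the mitochondrial genome, whereas all of its proteins are encoded in the nucleus, translated in the cytoplasm and imported. Some of these proteins are counterparts of bacterial ribosomal proteins and keep the bacterial number, while others were added during mitochondrial evolution and carry higher numbers. Respiration depends on it, and mutations of several of its proteins cause mitochondrial disease in humans.

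The cells were OSCs, a cultured line of ovarian somatic cells from Drosophila melanogaster in which Piwi silences transposons in the nucleus. They received siRNA against piwi (sipiwi), against Mi-2 (siMi-2), against Rpd3 (siRpd3) or, as the control, against GFP (siGFP, EGFP in the sample labels), and RNA was collected after 4 days. Mi-2 is a nucleosome remodeler and Rpd3 a histone deacetylase, and the knockdowns were made to ask whether they act with Piwi in silencing. With 1 library per condition there is no replicate check of any difference, no p-value is given, and all 3 comparisons share the siGFP library.

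The libraries held between 32638866 and 38060116 mapped reads. RNA of the targeted gene was lower in sipiwi (38.9 FPKM of piwi, against 73.5 FPKM in siGFP) and in siMi-2 (5.67 FPKM of Mi-2, against 34.4 FPKM in siGFP). RNA of Rpd3, annotated as HDAC1, was at 104 FPKM in the library labelled siRpd3, against 71.3 FPKM in siGFP (log2 ratio 0.54). This library is therefore named by its label throughout. The paper reports a check of RNAi efficiency in OSCs by western blots, Rpd3 among them, and protein was not measured in these libraries. Over all 7949 genes the median log2 ratio stood at 0.29 in sipiwi, 0.13 in siMi-2 and 0.69 for the siRpd3-labelled library. The cytoplasmic ribosomal proteins took 24.1%, 31.2% and 14.3% of the mapped reads in the sipiwi, siMi-2 and siRpd3-labelled libraries, against 32.0% in siGFP. The 5 somatic gonad markers tj, Fas3, zfh1, fs(1)Yb and piwi summed to between 196 and 322 FPKM in every library, but did not move together. Fas3 was at 9.12, 4.51 and 49.4 FPKM in sipiwi, siMi-2 and the siRpd3-labelled library, against 1.57 FPKM in siGFP, zfh1 at 2.51, 9.23 and 13.8 FPKM, against 3.69 FPKM, and fs(1)Yb at 70.2, 51.2 and 38.8 FPKM, against 53.3 FPKM. piwi is itself the target in sipiwi. The 6 germline markers vas, nos, aub, AGO3, bam and osk summed to 6.40, 15.1 and 5.78 FPKM in sipiwi, siMi-2 and the siRpd3-labelled library, against 3.32 FPKM in siGFP. In siMi-2 aub was at 8.06 FPKM and vas at 2.66 FPKM, against 0.328 and 0.0243 FPKM in siGFP. There bam (3.27, against 2.24 FPKM) and AGO3 (1.04, against 0.607 FPKM) were also higher and nos lower (0.0833, against 0.117 FPKM). The marker osk was listed at 0 in siMi-2 and in siGFP. The part of these marker differences in any result was not tested.

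The mitochondrial ribosomal protein genes were short genes of moderately high and similar level. Their median FPKM was 93.2 in sipiwi, 103 in siMi-2 and 85.4 for the siRpd3-labelled library, against 102 in siGFP. Averaged over the 4 libraries, single genes lay between 33.8 and 241 FPKM with a median of 94.7, whereas the median over all 7949 genes was 18.8 FPKM, and all 73 lay above that median gene. Their transcripts measured between 327 and 1829 nt with a median of 739 nt, against a median of 1746 nt over all genes, and 72 of the 73 were shorter than the median gene. The genes were spread over the major chromosome arms, with 11 on X, 12 on 2L, 12 on 2R, 17 on 3L and 21 on 3R, and no 2 of them lay within 10 kb of each other.

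**Figure D1:**
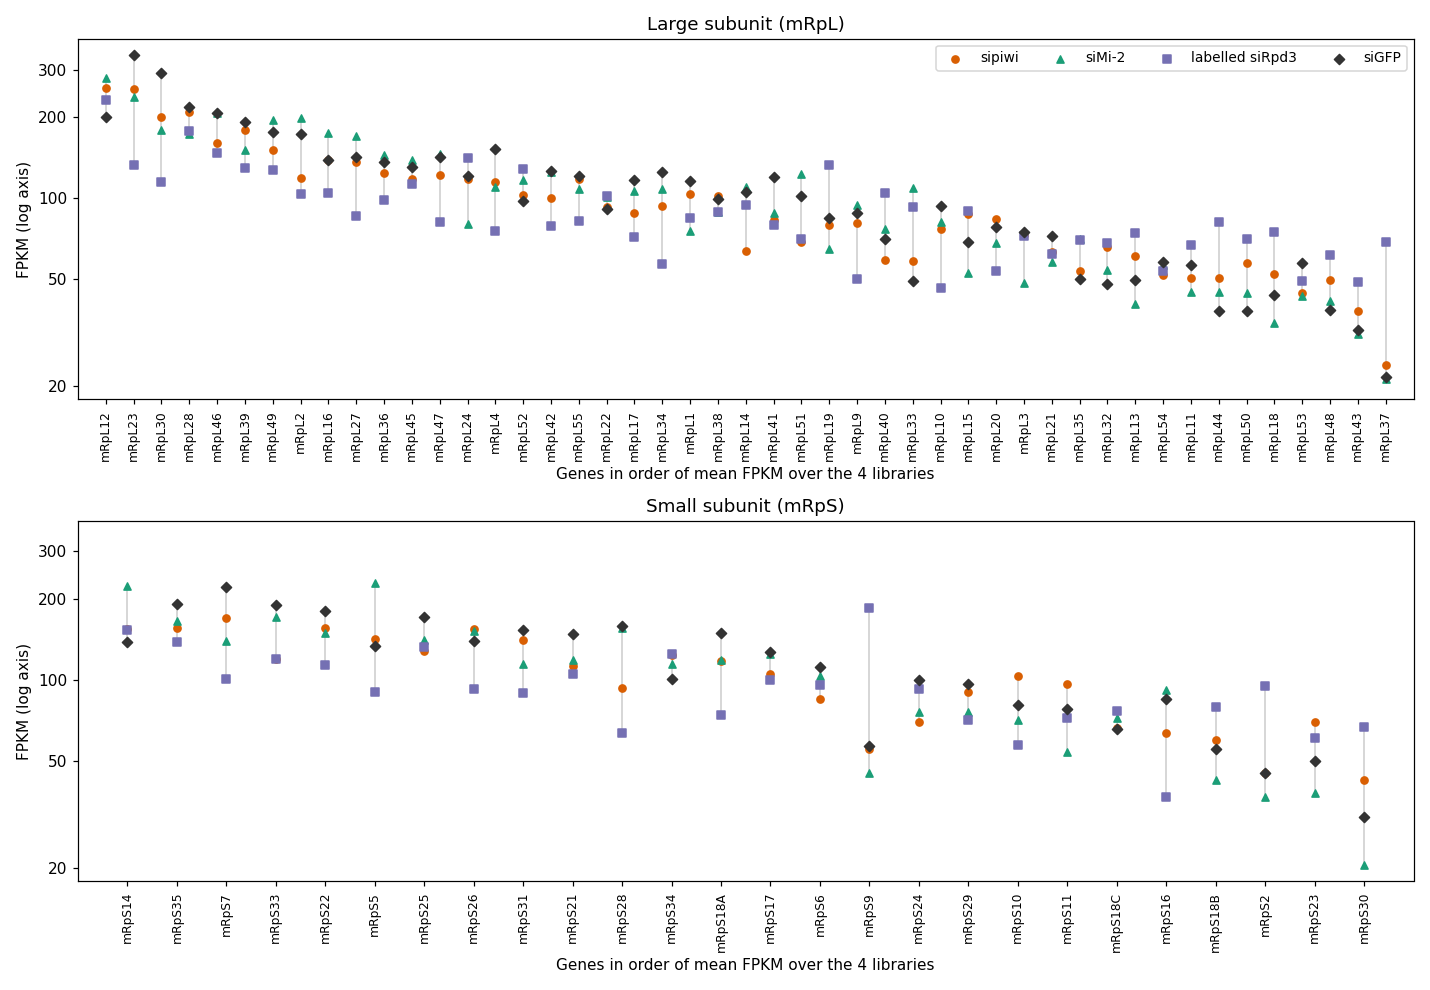
Levels of the 73 mitochondrial ribosomal protein genes in the 4 libraries, in FPKM on a log axis, with large-subunit genes above and small-subunit genes beneath, in order of mean FPKM, and a marker for each library. The genes spread least in the siRpd3-labelled library, between 36.6 and 231 FPKM, and in siGFP lay between 21.5 and 339 FPKM.

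The spread of levels among the 73 genes differed between libraries. The ratio of the 90th to the 10th percentile was 3.09 in sipiwi, 4.27 in siMi-2 and 2.34 for the siRpd3-labelled library, against 4.19 in siGFP, and the SD of log2 FPKM over the genes was 0.68, 0.86 and 0.51 in these knockdowns, against 0.82 in siGFP. The same SD over the 1508 other genes within the members' full range of transcript length and of mean level over the 4 libraries was 0.89, 0.91 and 0.90 in sipiwi, siMi-2 and the siRpd3-labelled library, against 0.95 in siGFP. For the 484 genes of similar length and level described further on it was 0.59, 0.61 and 0.67, against 0.64 in siGFP. The levels of the mitochondrial ribosomal protein genes were thus closest together in the siRpd3-labelled library, which was not so for either of these sets, both bounded by mean level. Sets without such bounds were also closest together there, with SDs of 1.49 for the cytoplasmic ribosomal proteins, 1.83 for the respiratory chain and 2.21 for all genes, against 1.93, 2.204 and 2.71 in siGFP. Genes are not independent replicates, and no difference in spread was tested.

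Together the 73 genes took a slightly smaller share of the mapped reads in each knockdown than in siGFP. Their reads made up 0.618% of all mapped reads in sipiwi, 0.632% in siMi-2 and 0.575% for the siRpd3-labelled library, against 0.680% in siGFP. The exact Clopper-Pearson 95% intervals of these shares ran from 0.615% to 0.620% in sipiwi, from 0.630% to 0.635% in siMi-2 and from 0.572% to 0.578% in the siRpd3-labelled library, against 0.678% to 0.683% in siGFP. The intervals do not overlap with that of siGFP, but they cover counting error only and not the spread between cultures. A share of reads also moves with whatever the rest of the library holds, which included the cytoplasmic ribosomal protein reads given above. In bulk RNA, fewer cells of a type and less RNA per cell cannot be told apart.

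Gene by gene, most of the 73 lay below siGFP in each knockdown, by small amounts. With log2 ratios taken as log2 of (FPKM + 0.1) over (siGFP FPKM + 0.1), 45 genes (61.6%) were below siGFP in sipiwi, 47 (64.4%) in siMi-2 and 47 (64.4%) for the siRpd3-labelled library, against 29.7%, 41.8% and 30.3% of all 7949 genes in the same comparisons. Of the 484 other genes of similar length and level, described further on, 42.1%, 45.0% and 60.1% were below siGFP. The members' share was thus near theirs in the siRpd3-labelled library. The median log2 ratio was −0.10 in sipiwi, −0.15 in siMi-2 and −0.30 for the siRpd3-labelled library, but scaling every library to the ribosomal protein gene RpL32 turned it to 0.36 in sipiwi and 0.97 in the siRpd3-labelled library and left it at −0.21 in siMi-2. On that scale 44 of the 47 members below siGFP in the siRpd3-labelled library and 37 of the 45 in sipiwi lay above it, so that each direction given for these libraries holds for FPKM as deposited. RpL32 itself is a cytoplasmic ribosomal protein gene. Its log2 ratio in FPKM as deposited was −0.46 in sipiwi, 0.06 in siMi-2 and −1.27 for the siRpd3-labelled library. Relative to the median gene of each library, the medians were −0.39, −0.28 and −0.99 in sipiwi, siMi-2 and the siRpd3-labelled library, and 61, 56 and 65 of the 73 genes (83.6%, 76.7% and 89.0%) lay below that gene, as 50% of all genes do. Of the 484 genes, 71.5%, 58.5% and 83.7% lay below it in the same libraries. In all 3 knockdowns 30 of the 73 (41.1%) lay below siGFP, against 11.7% of all genes, and 12 (16.4%) lay above siGFP in all 3, against 37.9% of all genes. Among the 484 genes, siGFP was the highest library for 21.3% and the lowest for 21.9%. Above siGFP in a single comparison lay 70.3%, 58.2% and 69.6% of all genes in sipiwi, siMi-2 and the siRpd3-labelled library.

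Few members passed a 2-fold difference. In sipiwi 0 of 73 were above 2-fold and 0 were below 0.5-fold, against 11.4% and 2.54% of all genes. Of the 484 genes of similar length and level, 5 (1.03%) were above 2-fold and 5 below 0.5-fold in sipiwi, so that the members' counts there are near those of their like. In siMi-2 1 member was above 2-fold and 0 below 0.5-fold, against 15.7% and 3.43% of all genes and 24 (4.96%) and 2 (0.413%) of the 484. In the siRpd3-labelled library 5 were above 2-fold and 9 below 0.5-fold, against 40.9% and 7.43% of all genes and 48 (9.92%) and 45 (9.30%) of the 484. At a 1.5-fold threshold, 1 member was higher and 3 were lower in sipiwi, against 30% and 6.39% of all genes. In siMi-2 3 were higher and 6 lower, against 27.2% and 10.8%, while in the siRpd3-labelled library 11 were higher and 20 lower, against 53% and 14.7%. Of the 484 genes, 46 were higher and 16 lower at this threshold in sipiwi, and 64 and 30 in siMi-2. For the siRpd3-labelled library 89 of the 484 were higher and 123 lower. Relative to the median gene, 0 members were above 2-fold and 2 below 0.5-fold in sipiwi, against 5.36% and 4.78% of all genes. The shares of the 484 there were 0.413% and 2.07%. On that scale siMi-2 had 1 above and 0 below, against 13.3% and 4.63% of all genes and 4.13% and 1.03% of the 484. The siRpd3-labelled library had 1 above and 36 (49.3%) below, against 23.1% and 21.8% of all genes and 2.89% and 42.4% of the 484. In that library the count below 0.5-fold thus moved between 0 (scaled to RpL32) and 36 with the scale.

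**Figure D2:**
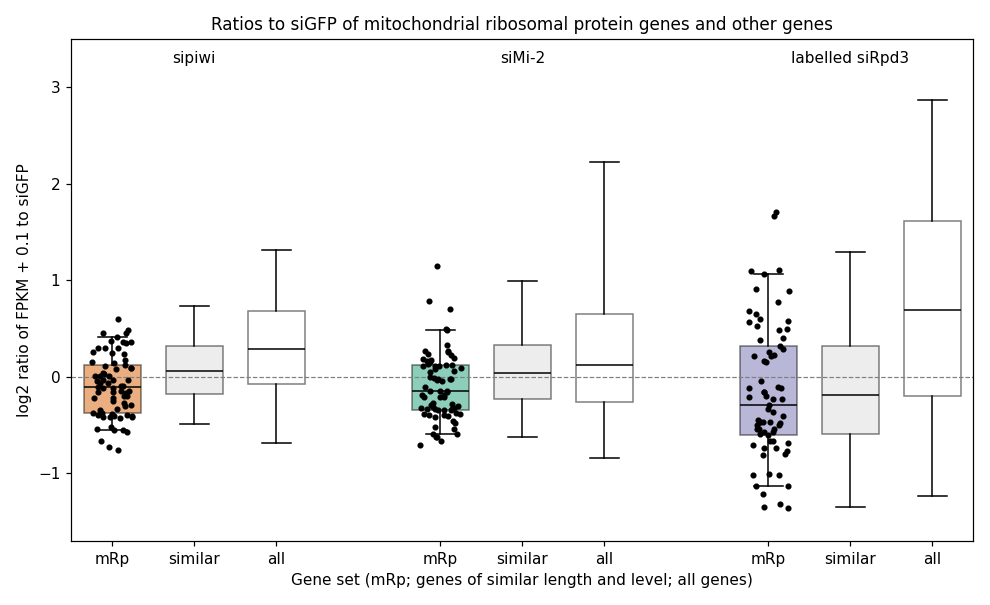
Log2 ratio to siGFP of the mitochondrial ribosomal protein genes, of the 484 other genes of similar length and level and of all 7949 genes, in the 3 knockdowns. Boxes show the median and quartiles, whiskers the 5th and 95th percentiles and points the single members. The members' medians of −0.10 in sipiwi, −0.15 in siMi-2 and −0.30 for the siRpd3-labelled library lie below the medians of all genes, and with scaling to RpL32 those of sipiwi and of the siRpd3-labelled library turn positive.

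To compare the members with genes of similar transcript length and level, they were set beside 484 other genes between the members' 10th and 90th percentiles of transcript length and mean FPKM. The median log2 ratio of these genes was 0.06 in sipiwi, 0.04 in siMi-2 and −0.19 for the siRpd3-labelled library. Genes of like length and level thus also lay well below the median of all genes (0.69) in that library. Across all genes the log2 ratio in the siRpd3-labelled library followed transcript length, with a Spearman rho of 0.49 over 7949 genes, against 0.17 over the 73 members. Over the 484 genes, which cover a similarly narrow range of length, it was 0.15, near that of the members. These correlations describe genes within the same libraries, and genes are not independent replicates.

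A closer comparison took, for each member, the 50 other genes nearest in transcript length and mean level and subtracted their median log2 ratio, which scaling of a library does not change. The members' median difference was −0.15 in sipiwi, −0.21 in siMi-2 and −0.0082 for the siRpd3-labelled library. In sipiwi 46 of the 73 lay below their nearest genes, against 50.2% of all genes. In siMi-2 51 lay below, against 50.1%, and in the siRpd3-labelled library 38 lay below, against 49.7%. In sipiwi and siMi-2 more members thus lay below their neighbours in length and level than above them, while in the siRpd3-labelled library they were split nearly evenly. For the 30 members whose exons overlap no other gene, the median differences were smaller, at −0.096 in sipiwi (17 below), −0.099 in siMi-2 (21 below) and 0.0052 for the siRpd3-labelled library (15 below). The 43 members with such overlaps had a median difference of −0.34 in siMi-2. A difference of more than 2-fold from the nearest genes was found for 0 members in sipiwi, for 1 above and 0 below in siMi-2 and for 4 above and 1 below in the siRpd3-labelled library.

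**Figure D3:**
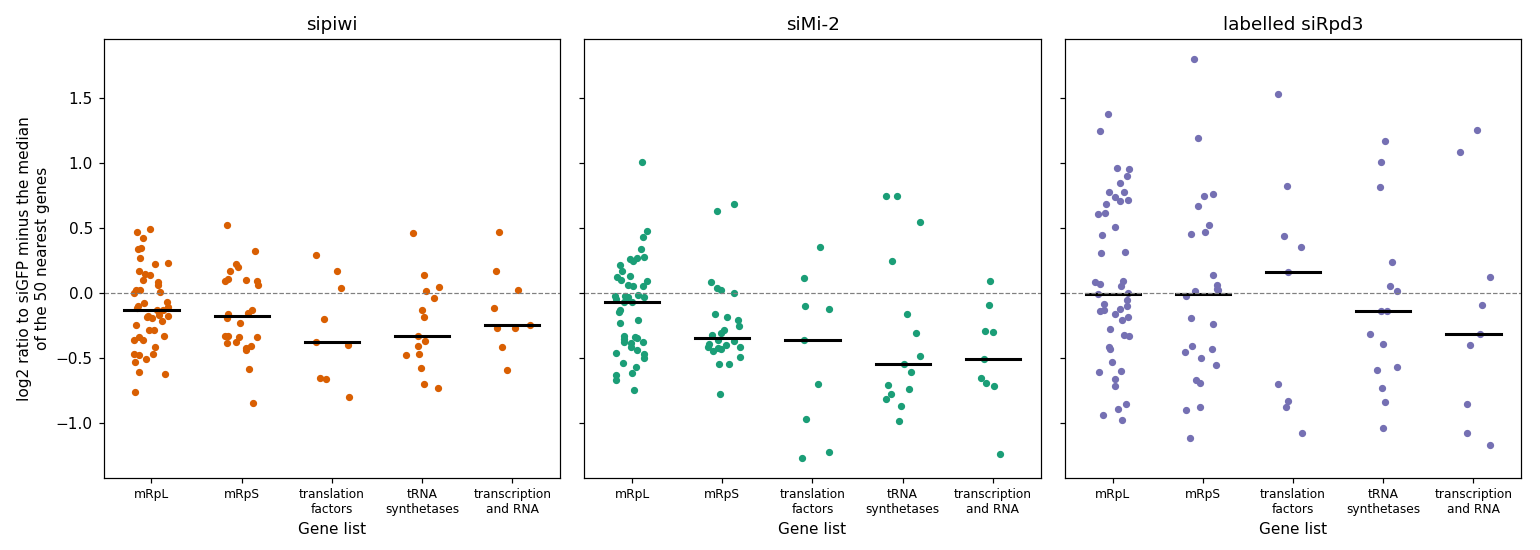
Log2 ratio to siGFP of each gene minus the median of its 50 nearest other genes in transcript length and mean FPKM, by gene list and knockdown. The mitochondrial ribosomal protein genes are shown by subunit (taken from the symbol, mRpL or mRpS). Beside them are the translation factors, the mitochondrial aminoacyl-tRNA synthetases and the genes of mitochondrial transcription and RNA handling, described further on. Points are genes and black bars medians. In siMi-2 21 of the 26 small-subunit genes and 30 of the 47 large-subunit genes lie below their nearest genes.

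Both subunits showed this pattern, with the small-subunit genes the lower in siMi-2. Subunits were taken from the symbols, although the human counterparts of mRpS18A and mRpS30 are found in the large subunit. In siMi-2 mRpS18A was at −0.34 and mRpS30 at −0.59, and both count here as small-subunit genes. The 47 large-subunit genes had a median log2 ratio of −0.10 in sipiwi, −0.04 in siMi-2 and −0.23 for the siRpd3-labelled library. For the 26 small-subunit genes the medians were −0.11, −0.28 and −0.40 in the same libraries, and all values of both subunits shift by the same amount with any rescaling of a library. Relative to the nearest genes, the large-subunit median was −0.07 and the small-subunit median −0.35 in siMi-2, with 30 of 47 and 21 of 26 genes below. Both subunits were at −0.01 in the siRpd3-labelled library. The genes were also grouped by the number in the symbol alone, and not by known origin. The 42 genes numbered up to 36 in the large and 21 in the small subunit had medians of −0.07, −0.21 and −0.26 in sipiwi, siMi-2 and the siRpd3-labelled library, and the 31 with higher numbers had −0.15, −0.04 and −0.36. No test of these differences was possible with 1 library per condition.

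In sipiwi, 4 members passed 1.5-fold. The highest was mRpL50 (3L:7243080-7243933, minus strand, in the dm6 build), a large-subunit protein without a bacterial counterpart. It had 57.5 FPKM in sipiwi, 44.4 in siMi-2 and 70.2 for the siRpd3-labelled library, against 37.9 in siGFP, and its log2 ratio in sipiwi was 0.60 with a 95% counting interval of 0.49 to 0.72. All 3 knockdowns were above siGFP for this gene. The next were mRpS23 (0.49), mRpS30 (0.46), mRpL32 (0.45) and mRpL44 (0.41). mRpL32, whose counterparts in yeast and mouse are processed by the m-AAA protease before assembly, had 65.6, 54.1 and 67.8 FPKM in sipiwi, siMi-2 and the siRpd3-labelled library, against 48.0 in siGFP. mRpS23 was above siGFP in sipiwi and in the siRpd3-labelled library (69.9 and 60.6 FPKM) and below it in siMi-2 (37.8 FPKM), against 49.8 FPKM in siGFP.

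The lowest member in sipiwi was mRpS28 (2R:18614210-18615018, minus strand), a small-subunit protein. It had 93.4 FPKM in sipiwi, 156 in siMi-2 and 63.5 for the siRpd3-labelled library, against 158 in siGFP. The log2 ratio in sipiwi was −0.76 with a counting interval of −0.83 to −0.69. mRpS28 thus stood apart from siGFP in sipiwi and in the siRpd3-labelled library (−1.31) but hardly in siMi-2 (−0.02). mRpL14, whose bacterial counterpart lies at the interface of the subunits, was lower in sipiwi (63.6 FPKM, log2 ratio −0.73), with 110 and 94.3 FPKM in siMi-2 and the siRpd3-labelled library, against 105 FPKM in siGFP. mRpS33 followed at −0.67, mRpL51 at −0.57 and mRpL2 at −0.55. mRpL2, whose bacterial counterpart lies next to the peptidyl transferase centre, had 118 FPKM in sipiwi, 198 in siMi-2 and 104 for the siRpd3-labelled library, against 173 in siGFP.

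In siMi-2 the only member above 2-fold was mRpL33 (X:4321764-4322231, minus strand, 3 exons), a large-subunit protein with a transcript of 349 nt and a bacterial counterpart. It had 58.1 FPKM in sipiwi, 109 in siMi-2 and 92.3 for the siRpd3-labelled library, against 49.0 in siGFP, from 772, 1372 and 1051 reads, against 628 reads. Its log2 ratio in siMi-2 was 1.15 with a counting interval of 1.01 to 1.29, and 1.0 relative to its 50 nearest genes. The library labelled siRpd3 was also above siGFP for mRpL33, at 0.91. The other high members in siMi-2 were mRpS5 (0.78), mRpS14 (0.70), mRpL35 (0.49) and mRpL12 (0.48). mRpS5 (3L:24537236-24543534), whose bacterial counterpart affects the accuracy of decoding, had 142 FPKM in sipiwi, 229 in siMi-2 and 89.9 for the siRpd3-labelled library, against 133 in siGFP. It was therefore above siGFP in siMi-2 and below it in the siRpd3-labelled library (−0.57).

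The lowest member in siMi-2 was mRpL30 (X:4647871-4648646), a counterpart of a bacterial large-subunit protein, at a log2 ratio of −0.71. Its levels were 199 FPKM in sipiwi, 178 in siMi-2 and 114 for the siRpd3-labelled library, against 292 in siGFP, so that each knockdown lay below siGFP. mRpS7, whose bacterial counterpart starts assembly of the head of the small subunit, had 169, 139 and 101 FPKM in sipiwi, siMi-2 and the siRpd3-labelled library, against 222 FPKM in siGFP, and was at −0.67 in siMi-2. mRpL3 (−0.63), mRpL1 (−0.62) and mRpL24 (−0.59) came next. In bacteria the counterpart of mRpL3 is among the first proteins to bind the ribosomal RNA, that of mRpL1 forms the stalk through which spent tRNAs leave, and that of mRpL24 lies by the exit of the peptide tunnel. mRpL24 had 117 FPKM in sipiwi, 79.9 in siMi-2 and 141 for the siRpd3-labelled library, against 120 in siGFP, and was thus lower mainly in siMi-2.

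In the siRpd3-labelled library the members diverged most, with an SD of 0.70 over the log2 ratios of the 73 genes, against 0.32 in sipiwi and 0.35 in siMi-2. Other genes also diverged most there. The SD was 0.87, against 0.42 in sipiwi and 0.57 in siMi-2, over the 484 genes of similar length and level. Over all genes it was 1.34, against 0.71 and 1.08. The highest member was mRpS9 (3R:7889277-7902667, minus strand, 7 exons), whose bacterial counterpart contacts the tRNA in the P site. It had 55.4 FPKM in sipiwi, 45.0 in siMi-2 and 186 for the siRpd3-labelled library, against 56.7 in siGFP, and the log2 ratio in the last knockdown was 1.71 with a counting interval of 1.65 to 1.77. Of its exonic bases 25.1% overlap ArgRS-m, a gene on the opposite strand, which had 18.1 FPKM in the siRpd3-labelled library, against 7.73 FPKM in siGFP (log2 ratio 1.21), and without strand information reads in the overlap cannot be told apart. mRpL37 (3R:10782563-10784092) was at 1.67, with 23.8 FPKM in sipiwi, 21.1 in siMi-2 and 68.8 for the siRpd3-labelled library, against 21.5 in siGFP. It was the least abundant member, with a mean of 33.8 FPKM. The other members above 2-fold there were mRpL44 (1.10), which resembles RNase III enzymes, mRpS30 (1.10) and mRpS2 (1.07). mRpS30 (X:15786047-15788288), whose human counterpart is found in the large subunit in spite of its name, had 42.6 FPKM in sipiwi, 20.5 in siMi-2 and 66.5 for the siRpd3-labelled library, against 31.0 in siGFP. mRpS2 had 45.2, 36.6 and 94.5 FPKM in the same libraries, against 45.0 in siGFP.

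The members below 0.5-fold in the siRpd3-labelled library were mRpL23, mRpL30, mRpS28, mRpS16, mRpS7, mRpL34, mRpS18A, mRpL10 and mRpL4, of which the last 4 were at −1.13, −1.02, −1.02 and −1.01. mRpL23 (3L:2372844-2373704, minus strand), whose bacterial counterpart sits at the exit of the peptide tunnel, was lowest at −1.36. It had 254 FPKM in sipiwi, 237 in siMi-2 and 132 for the siRpd3-labelled library, against 339 in siGFP, and was one of the 2 most abundant members. mRpL30 was at −1.35, mRpS28 at −1.31, mRpS16 at −1.21 and mRpS7 at −1.13. mRpS16, mutated in a human mitochondrial disease, had 63.3 FPKM in sipiwi, 91.7 in siMi-2 and 36.6 for the siRpd3-labelled library, against 85.0 in siGFP. With RpL32 as the scale, 0 of the 73 members were below 0.5-fold in this library and 36 (49.3%) were above 2-fold, against 1.06% and 76.8% of all genes and 0.826% and 55.6% of the 484 genes of similar length and level.

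The ratio in the siRpd3-labelled library varied with the level of the member. The level was taken as the mean FPKM of sipiwi and siMi-2, so that it shares no library with the ratio. It is still not independent of the ratio, because levels of a gene in these libraries and in siGFP go together. A negative rho therefore goes with the narrower spread given above (SD 0.51, against 0.82 in siGFP) and is not a separate result. Over the 73 members the Spearman rho of the ratio with this level was −0.66, against −0.24 over the 1508 other genes within the members' full range and −0.50 over all genes. The 24 members under 74.99 FPKM had a median log2 ratio of 0.55, with 19 above siGFP, the 24 in the middle had −0.49 with 4 above, and the 25 at 118 FPKM or more had −0.57 with 3 above. For the 1508 genes cut at the same levels the medians were 0.03 (802 genes), −0.22 (332 genes) and −0.32 (374 genes). In sipiwi the rho of the members was −0.37, against −0.01 for the 1508 genes, and in siMi-2 it was −0.00, against 0.01. These rhos are descriptions across genes of the same libraries, without a test.

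**Figure D4:**
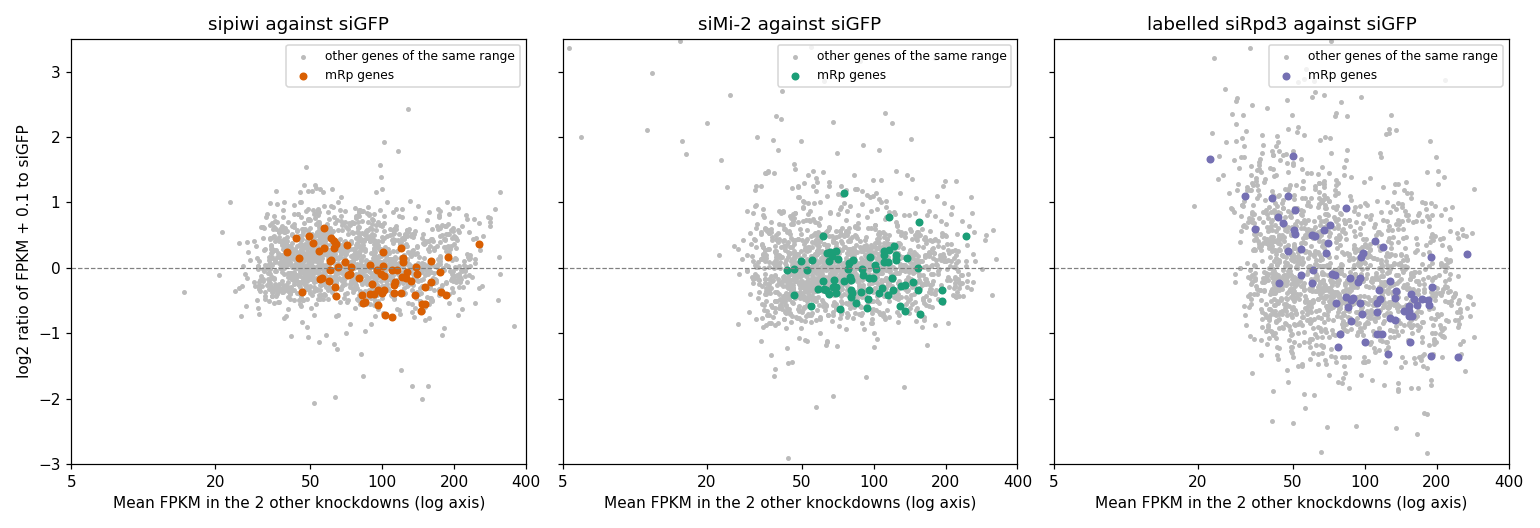
Log2 ratio to siGFP against the mean FPKM of the other 2 knockdowns, on a log axis, for the 73 mitochondrial ribosomal protein genes (coloured) and the 1508 other genes within their full range of length and level (grey). Over the 3 plots, 12 points of other genes lie outside the axes. In the siRpd3-labelled library 19 of the 24 members of lowest level lie above siGFP and 3 of the 25 of highest level do.

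The most abundant members were mRpL12 at a mean of 241 FPKM, mRpL23 at 240.5, mRpL30 at 196, mRpL28 at 194 and mRpL46 at 180. mRpL12, whose bacterial counterpart forms the stalk that recruits translation factors, was one of the members above siGFP in every knockdown, with 255 FPKM in sipiwi, 279 in siMi-2 and 231 for the siRpd3-labelled library, against 199 in siGFP. mRpL12 and mRpL23 were thus at nearly the same mean level, and in the siRpd3-labelled library lay on opposite sides of siGFP. The least abundant after mRpL37 were mRpL43 at 37.5 FPKM and mRpS30 at 40.1 FPKM.

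The count of members highest in siGFP repeats that of members below siGFP in all 3 knockdowns and is not a separate result. The library with the highest level was siGFP for 30 of the 73 members (41.1%), against 21.3% of the 484 genes of similar length and level and 11.7% of all genes. It was sipiwi for 6 members (8.22%), siMi-2 for 16 (21.9%) and the siRpd3-labelled library for 21 (28.8%), against 25%, 32.0% and 21.7% of the 484 and 18.1%, 18.2% and 52.0% of all genes. The lowest level was in the siRpd3-labelled library for 34 members (46.6%), near the 49.0% of the 484 and above the 21.6% of all genes. From the lowest to the highest library, the members differed by between 0.16 and 2.04 on the log2 scale with a median of 0.71, and 18 of the 73 (24.7%) covered more than 2-fold, against 32.6% of the 484 and 65.0% of all genes. The steadiest was mRpL22, whose bacterial counterpart lines the peptide tunnel, with 92.2, 101 and 101 FPKM in sipiwi, siMi-2 and the siRpd3-labelled library, against 90.5 in siGFP. mRpL54 (0.17) and mRpL38 (0.20) followed. The widest were mRpS9 (2.04), mRpL37 (1.70) and mRpS30 (1.69).

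Flies have 3 paralogs of the bacterial small-subunit protein S18, and they differed in level and in direction. In human mitochondrial ribosomes the counterpart of mRpS18A sits in the large subunit and those of mRpS18B and mRpS18C in different places of the small subunit. mRpS18A had 118 FPKM in sipiwi, 118 in siMi-2 and 73.7 for the siRpd3-labelled library, against 149 in siGFP. mRpS18B had 59.9, 42.4 and 79.3 FPKM in the same libraries, against 55.2 in siGFP. mRpS18C had 65.9, 71.8 and 76.2 FPKM, against 65.5 in siGFP. In the siRpd3-labelled library the log2 ratios were −1.02 for mRpS18A, 0.52 for mRpS18B and 0.22 for mRpS18C, so that mRpS18A alone of these paralogs was below siGFP there unless the library was scaled to RpL32, which put it at 0.25.

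Transcript length divided the members in part. The 27 genes under 700 nt had median log2 ratios of −0.34 in sipiwi, −0.04 in siMi-2 and −0.48 for the siRpd3-labelled library, and the 27 genes of 700 to 1000 nt had 0.01, −0.04 and 0.16. For the 17 genes of 1000 to 1400 nt the medians were −0.10, −0.33 and −0.30. In sipiwi and the siRpd3-labelled library the order of these groups thus did not follow length, whereas over all genes the medians in that library were −0.32, 0.01 and 0.22 in the same length groups. The 11 members on the X chromosome had medians of 0.00, 0.06 and −0.16 in sipiwi, siMi-2 and the siRpd3-labelled library, and the 62 on the autosomes had −0.12, −0.17 and −0.39.

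Exons of 43 of the 73 members (58.9%) overlap exons of another gene, against 44.5% of the other genes, and reads there may be counted for either gene. Without these members the median log2 ratios of the remaining 30 genes were −0.05 in sipiwi, −0.032 in siMi-2 and −0.21 for the siRpd3-labelled library. The overlap covered over 20% of the exonic bases for 8 members and was on the same strand for 3 of them. mRpL53 lies wholly within CG33155, so that its values are uncertain. Of the exonic bases of mRpL13, 35.2% are shared with CG10602 on the same strand, which had 54.9 FPKM in sipiwi, 39.6 in siMi-2 and 110 for the siRpd3-labelled library, against 39.6 in siGFP. The overlap was 35.8% for mRpS14, which was among the highest members in siMi-2. It is shared with Naa15-16 on the opposite strand and CG32533 on the same strand. In siMi-2 these genes were below siGFP, at log2 ratios of −0.48 and −0.72, and the part of shared reads was not tested.

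Other nuclear genes of mitochondrial translation lay in part within the range of the mRp genes. Both tko and bonsai, the fly homologs of the bacterial small-subunit proteins S12 and S15, are further proteins of the mitochondrial ribosome that carry names of mutants and so fell outside the symbol rule. tko, known for bang-sensitive flies, had 135 FPKM in sipiwi, 141 in siMi-2 and 156 for the siRpd3-labelled library, against 104 in siGFP. bonsai had 42.5, 30.5 and 112 FPKM, against 35.5 in siGFP, and was at 1.66 on the log2 scale in the siRpd3-labelled library. Of the 9 translation factors found in the table, 7 lay below their nearest genes in siMi-2, 6 in sipiwi and 4 in the siRpd3-labelled library, and their median log2 ratios were 0.04 in sipiwi, −0.59 in siMi-2 and 0.29 for the siRpd3-labelled library.

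The elongation factors were on average the most abundant of these. mEFTu1, which brings aminoacyl-tRNA to the ribosome, had 378 FPKM in sipiwi, 332 in siMi-2 and 248 for the siRpd3-labelled library, against 518 in siGFP, and was below siGFP in every knockdown. mEFTu2 had 39.8, 49.6 and 39.9 FPKM in these libraries, against 56.0 in siGFP, and mEFTs, which recharges EF-Tu with GTP, had 119, 90.4 and 120 FPKM, against 97.9 in siGFP. mEFG1, which moves the ribosome along the message, was the only one of the 9 below 0.5-fold in siMi-2, where 3.43% of all genes were. It had 12.9 FPKM there (log2 ratio −1.28), with 32.3 and 25.9 FPKM in sipiwi and the siRpd3-labelled library, against 31.4 FPKM in siGFP.

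Factors of initiation, release and recycling were less abundant. The initiation factor mIF2 had 20.1 FPKM in sipiwi, 14.8 in siMi-2 and 27.7 for the siRpd3-labelled library, against 24.6 in siGFP, and mIF3 had 6.34, 5.15 and 21.3 FPKM, against 4.52 in siGFP. The release factor mRF1 had 17.6, 15.4 and 20.7 FPKM in these libraries, against 11.7 in siGFP. The recycling factor mRRF1 had 8.37, 5.87 and 24.0 FPKM, against 10.1 in siGFP, and mRRF2 had 3.11, 1.77 and 10.5 FPKM, against 2.73 in siGFP. mIF3 (log2 ratio 2.21), mRRF2 (1.91) and mRRF1 (1.24) were thus above 2-fold in the siRpd3-labelled library, as were 40.9% of all genes.

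The 15 mitochondrial aminoacyl-tRNA synthetases, which charge tRNAs inside mitochondria, had median log2 ratios of 0.14 in sipiwi, −0.41 in siMi-2 and 0.79 for the siRpd3-labelled library, and 7 were above 2-fold in the last, where 40.9% of all genes were. Relative to their nearest genes their medians were −0.34, −0.55 and −0.14. The 9 genes of mitochondrial transcription and RNA handling had medians of 0.14, −0.59 and 0.49, and relative to their nearest genes −0.25, −0.51 and −0.32, with 6, 8 and 6 of them below. Among them PolrMT, the mitochondrial RNA polymerase, had 9.08 FPKM in sipiwi, 3.76 in siMi-2 and 17.9 for the siRpd3-labelled library, against 6.91 in siGFP. In siMi-2 the medians of these lists and of the translation factors (−0.37) lay further below the nearest genes than that of the mitochondrial ribosomal proteins (−0.21), a difference that was not tested.

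The 62 nuclear genes of the respiratory chain were taken by symbol, as those beginning with ND-, COX, UQCR- or ATPsyn. Their medians were −0.08 in sipiwi, −0.07 in siMi-2 and −0.55 for the siRpd3-labelled library, and −0.03, −0.13 and −0.18 relative to their nearest genes. The 88 cytoplasmic ribosomal protein genes were sta and those named RpL, RpLP or RpS followed by a digit. Genes such as RpL24-like and RpL7-like are thus among them. The medians of the 88 were −0.35, −0.02 and −1.25, and 0.01, 0.01 and 0.04 relative to their nearest genes. Of these 88, 56 were below 0.5-fold in the siRpd3-labelled library, against 9 of the 73 mitochondrial ribosomal protein genes and 7.43% of all genes.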

How the data were processed

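RNA of OSCs was sequenced 4 days after transfection of siRNA, with 1 library per condition. The authors mapped the reads with Bowtie2 (version 2.2.4 in the submitters' processing notes) to the dm6 genome and deposited FPKM values per RefSeq transcript. RefSeq accessions were found for 98.9% of the 35327 rows and gave current gene symbols. No count test was applied to FPKM. Mapped reads were read back from the FPKM steps of 3311 intronless genes, 98.5% to 98.7% of whose values came out whole within 0.05 reads, and the length and reads of each transcript followed. They were used for shares, lengths and exact Clopper-Pearson intervals at 95%, which cover counting error only.

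Transcripts were summed per gene, and log2 ratios to siGFP were taken after adding a pseudocount of 0.1 FPKM, on which changes of low genes appear smaller than they are, over genes with a mean of at least 1 FPKM. A gene was called above 2-fold or below 0.5-fold. Comparison genes were those between the members' 10th and 90th percentiles, or within their whole range, of transcript length and mean FPKM, and the 50 nearest in log length and log mean FPKM. Named members were the 5 highest and 5 lowest per knockdown, the 5 most and 3 least abundant, the 3 steadiest and 3 widest, and the mRpS18 paralogs. mRpL13, mRpL53 and the remaining members past 2-fold were named after their values were seen, as were ArgRS-m, CG10602 and PolrMT. The members and lists were chosen with earlier results of these data known. Scripts were tested on simulated data. Software was matplotlib 3.10.9, scipy 1.17.1, pandas 2.3.3 and numpy 2.4.6 under Python 3.11.15. Promoter and protein sequences were not analysed here.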

Additional observations from a re-analysis of the deposited data

How the results depend on the processing

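Pseudocounts of 0.01 and 1 FPKM, no minimum, a minimum of 5 FPKM and the top transcript of each gene instead of their sum moved no count or median over the 73 members by more than the limits set. Scaled to the median gene, the members' medians were −0.39 in sipiwi, −0.28 in siMi-2 and −0.99 for the siRpd3-labelled library, with 2 below 0.5-fold in sipiwi and 1 above 2-fold and 36 below 0.5-fold in the siRpd3-labelled library. Scaled to RpL32, sipiwi had 1 above 2-fold and a median of 0.36, and the siRpd3-labelled library had 36 above, 0 below and a median of 0.97, where 44 of the 47 members below siGFP changed sign, among them mRpS7 (0.13), mRpS16 (0.049) and mRpS18A (0.25), which had been below 0.5-fold. Relative to the 50 nearest genes, the siRpd3-labelled library had 1 below and a median of −0.0082. At 1.5-fold, 1, 3 and 11 members were above and 3, 6 and 20 below in sipiwi, siMi-2 and the siRpd3-labelled library. These shifts follow from the scale or threshold. Further alternatives were chosen after seeing the data. Without reads of the cytoplasmic ribosomal proteins, the median was −0.26 in sipiwi and −0.63 in the siRpd3-labelled library, with 2 above and 17 below there. Without the members whose exons overlap another gene, the median was −0.032 in siMi-2 and −0.21 for the siRpd3-labelled library, with 2 above and 2 below there among fewer genes. No paired analysis was possible because each condition has 1 library.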
